A study of Mus musculus with 2 samples.

Results

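The genes described here are 10 components and cellular markers of the reelin and Cxcl12 guidance routes in the embryonic mouse forebrain: the ligand Reln, its receptors Vldlr and Lrp8 and their adaptor Dab1, the Cajal-Retzius cell markers Trp73, Calb2 and Ebf3, the chemokine Cxcl12, and its receptors Cxcr4 and Ackr3. They were chosen by gene symbol in the GENCODE M21 annotation and are 10 of 43346 annotated mouse genes in the deposited tables. Total RNA came from forebrain of healthy embryos of the B6NCrl strain at 12.5 days, without a treatment or an altered allele named in the labels. Replicate 1 was a pool of 120 embryos and replicate 2 a pool of 68 embryos, each of both sexes. The 2 pools form 1 group, so no condition could be compared and no test was possible. A mean ± SD over n = 2 gives only the spread between these pools.

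Reelin is a large secreted glycoprotein that Cajal-Retzius cells, early neurons at the surface of the cortical wall, release into the marginal zone. It clusters the receptors Vldlr and Lrp8 (also called ApoER2) on migrating neurons, and Src-family kinases then phosphorylate tyrosines of Dab1, which is bound to the receptors' intracellular tails. Cxcl12 is a secreted chemokine made by the meninges and by intermediate progenitors. It holds Cajal-Retzius cells at the surface and guides interneurons through the G protein-coupled receptor Cxcr4, while Ackr3 is an atypical receptor that takes up the chemokine and signals through arrestins.

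Expected counts, the estimated reads per gene, summed to 33711030 in replicate 1 and 34578499 in replicate 2. Levels are in TPM, the deposited share of transcripts, a scale per unit of transcript length on which genes can be compared within a library. The spike-in RNAs took 9.19% and 8.25% of TPM. Telencephalic and thalamic markers were present: 6 of 6 dorsal, 8 of 8 ventral and 4 of 4 thalamic genes reached 1 TPM in both pools. Of the Hox genes of the hindbrain and spinal cord, 0 of 6 did. Of all annotated protein-coding genes, 60.0% reached 1 TPM in both pools. Markers of other cells in the dissection also reached it, with 9 of 9 for meninges and mesenchyme, 6 of 6 for endothelium, 5 of 6 for microglia and blood leukocytes and 6 of 6 for red blood cells. The values are therefore sums over many cell types, and fewer cells of a type cannot be told apart from less RNA per cell.

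The sequences on which the findings on transcript forms turn are the alternative exons of the reelin route and the alternative ends of Trp73 and Cxcl12. All are from the GENCODE M21 transcripts on GRCm38, the same build as the authors' mm10, and are printed 5′ to 3′ on the gene's own strand. Capitals mark the alternative bases and lower case the neighbouring bases of the same transcript. The following 5 cassette exons lie within coding sequence and each adds a whole number of codons. They are the 6-base microexon of Reln (chr5:21891562-21891567, minus strand), the 39-base and 66-base exons of Dab1 (chr4:104680070-104680108 and chr4:104681598-104681663, plus strand), an 84-base exon of Vldlr (chr19:27246593-27246676, plus strand) that encodes the stretch carrying O-linked sugars before the membrane, and a 177-base exon of Lrp8 (chr4:107870012-107870188, plus strand) that encodes the insert of its intracellular tail.
Reln microexon: ggaggtcgtcctAGTAAGcactcgcaaaca
Dab1 39-base exon: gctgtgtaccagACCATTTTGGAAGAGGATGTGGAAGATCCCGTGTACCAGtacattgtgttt
Dab1 66-base exon: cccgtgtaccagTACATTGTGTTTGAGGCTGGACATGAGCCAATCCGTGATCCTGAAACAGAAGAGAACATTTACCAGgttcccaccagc
Vldlr 84-base exon: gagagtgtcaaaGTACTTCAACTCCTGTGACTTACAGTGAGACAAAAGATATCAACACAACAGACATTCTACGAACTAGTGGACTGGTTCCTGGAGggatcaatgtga
Lrp8 177-base exon: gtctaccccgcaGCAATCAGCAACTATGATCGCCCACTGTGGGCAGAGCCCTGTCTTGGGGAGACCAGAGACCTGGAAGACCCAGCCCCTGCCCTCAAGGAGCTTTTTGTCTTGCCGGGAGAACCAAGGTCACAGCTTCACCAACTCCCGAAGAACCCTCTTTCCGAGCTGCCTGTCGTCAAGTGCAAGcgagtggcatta

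All 10 genes reached 1 TPM in both pools, which 60.0% of the 21474 annotated protein-coding genes did. The adaptor Dab1 was highest at 64.4 ± 1.51 TPM, and the transcription factor Ebf3 was lowest at 2.35 ± 0.559 TPM. Of the 12880 protein-coding genes that reached 1 TPM, 79.0% lay below Dab1 and 7.77% below Ebf3. The median of the 10 genes was 21.3 TPM, beside 21.6 TPM for those 12880 genes.

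In order of mean TPM the genes ran Dab1, Cxcl12, Lrp8, Calb2, Ackr3, Reln, Vldlr, Cxcr4, Trp73 and Ebf3. In 8 of the 9 neighbouring pairs, both pools of the higher gene lay above both pools of the lower. Ackr3 and Reln overlapped. For several of these genes the TPM depends on how reads were divided among annotated transcripts of very different lengths, because a short transcript turns few reads into a large TPM. The levels were therefore also computed with all expected counts of a gene divided by the effective length of its longest annotated transcript and scaled like TPM, here called the longest transcript basis, a choice made after seeing the data. On that basis the order was Dab1, Calb2, Lrp8, Ackr3, Cxcl12, Reln, Cxcr4, Trp73, Vldlr and Ebf3, with 6 of 9 neighbouring pairs separated. Dab1 remained first and Ebf3 last, while Cxcl12 moved from second to the fifth place.

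**Figure D1:**
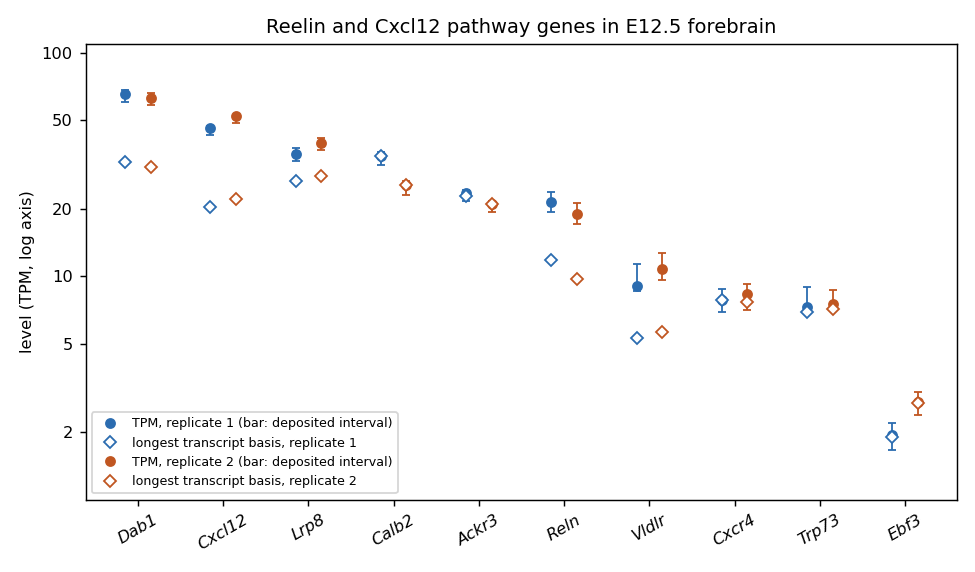
Level of each gene in TPM (log axis) in replicate 1 (blue) and replicate 2 (orange), in order of mean TPM. Filled circles are TPM as deposited with the deposited interval as a bar, and open diamonds are the longest transcript basis, which lies well below TPM for Dab1, Cxcl12, Reln and Vldlr and close to it for Calb2, Ackr3, Cxcr4, Trp73 and Ebf3.

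Reln (ENSMUSG00000042453.10, chr5:21884454-22344702, minus strand) was at 21.57 TPM in replicate 1 and at 19.09 in replicate 2, on 2776 and 2367 expected counts. The deposited TPM intervals, for which the sources used here give no level, ran from 19.5 to 24.0 TPM and from 17.2 to 21.3 TPM. They overlapped, so the pools were not separated for the ligand. On the longest transcript basis Reln was at 11.9 and 9.72 TPM.

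The difference between these scales lay in the short annotated transcripts. Reln-207, of 11699 bases and 65 exons, encodes the full secreted protein of 3461 residues and took 86.3% and 84.5% of the gene's expected counts, but only 47.51% and 43.03% of its TPM. Reln-205, a processed transcript of 891 bases, took 29.44% and 32.89% of the TPM on 101 and 104 expected counts. Transcripts of the gene outside the protein-coding class together held 51.3% and 56.8% of its TPM.

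The 6-base microexon near the end of the Reln coding sequence is known to be included in brain and adds a pair of codons. Nearly all RNA assigned to the full-length coding transcripts of Reln was assigned to the form with the microexon. Reln-207, which contains it, was at 10.25 and 8.21 TPM, and Reln-201, the annotated coding transcript without it, was at 0.25 and 0.04 TPM. The form with the microexon thus made up 97.6% and 99.5% of the sum of both. Reln-201 also differs from Reln-207 in length, at 10885 bases, and has 0 bases that no other transcript holds. The 441 bases that only Reln-207 holds all lie in its last exon. A longer last exon and inclusion of the microexon therefore cannot be told apart in the deposited tables. An antisense gene, Gm10475, overlaps 246 exonic bases of Reln and was at 0.15 and 0.26 TPM. The sources used here do not state whether reads were assigned by strand, so reads of either gene in that overlap cannot be told apart.

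Of the receptors, Lrp8 was the more abundant. Lrp8 (ENSMUSG00000028613.10, chr4:107802261-107876840, plus strand) was at 35.47 and 39.64 TPM on 3510 and 3863 expected counts, with intervals of 33.0 to 37.5 and 36.9 to 41.6 TPM that overlapped. Vldlr (ENSMUSG00000024924.10, chr19:27216484-27254231, plus strand) was at 9.07 and 10.82 TPM on 844 and 934 expected counts, with overlapping intervals of 8.58 to 11.4 and 9.61 to 12.7 TPM. Both pools of Lrp8 lay above both pools of Vldlr. Lrp8 exceeded Vldlr 3.91-fold in replicate 1 and 3.66-fold in replicate 2, a mean log2 ratio of Vldlr to Lrp8 of -1.92 ± 0.07 (SD, n = 2). On the longest transcript basis the excess was 5.01-fold and 4.99-fold.

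The ligand lay between its receptors. Reln exceeded Vldlr 2.38-fold in replicate 1 and 1.76-fold in replicate 2, and Lrp8 exceeded Reln 1.64-fold and 2.08-fold. Each direction was the same in both pools and on the longest transcript basis, where Reln exceeded Vldlr 2.23-fold and 1.72-fold and Lrp8 exceeded Reln 2.25-fold and 2.90-fold. These ratios compare RNA levels in whole forebrain, where ligand and receptors are made largely by different cells.

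Among the 12 annotated Lrp8 transcripts, Lrp8-202 led. It was at 22.01 and 21.99 TPM, or 62.07% and 55.47% of the gene's TPM, and held 82.5% and 78.0% of its expected counts. Of its 6627 bases, 2855 are in no other annotated transcript of the gene, all in its last exon. The coding sequence of Lrp8-202, 2095 bases, is not a multiple of 3 and so is incomplete as annotated. The other forms at 5% or more in both pools were Lrp8-209, a transcript of the nonsense-mediated decay class at 5.91 and 4.97 TPM, and Lrp8-212, a processed transcript of 797 bases at 4.03 and 7.38 TPM. Lrp8-201, the longest coding form with 955 residues, was at 1.31 and 3.74 TPM with wide intervals, and is named after its values were seen.

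Of 5 coding cassette exons of Lrp8 that keep the reading frame, 3 were mostly absent from the transcripts that span them. The other 2, of 126 and 225 bases, were at 100% in both pools, since the annotated transcripts that skip them had 0 expected counts. A 381-base exon in the ligand-binding region, which removes several receptor repeats when skipped, was in transcripts that summed to 7.22 TPM against 26.0 TPM without it in replicate 1, and 8.80 against 29.4 TPM in replicate 2. Its inclusion was therefore 21.7% and 23.1%. A 123-base exon nearby was included in 29.9% and 32.4%. The printed tail exon, whose product is the insert that binds JIP scaffold proteins, was included in 24.7% and 28.3%. By expected counts the 3 exons were lower still, at 14.4% and 18.1%, 12.7% and 11.6%, and 14.7% and 18.5%. These values rest largely on Lrp8-202, which lacks all 3 exons, and all the bases particular to that transcript lie in its long last exon and not at the exons themselves. A longer last exon and skipping of these exons therefore cannot be told apart in the deposited tables.

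Vldlr was divided more evenly. Vldlr-207 had 29.42% and 26.62% of the gene's TPM and 50.2% and 51.0% of its expected counts, and Vldlr-201, of the nonsense-mediated decay class, had 31.62% and 22.58% of TPM. The printed exon for the O-linked sugar stretch is in Vldlr-207 and not in Vldlr-201, Vldlr-202 or Vldlr-208. Transcripts with it summed to 2.67 and 2.88 TPM and those without it to 5.28 and 5.45 TPM, an inclusion of 33.6% and 34.6%. A 123-base exon of the ligand-binding region was included in 66.7% and 71.2%, and a 126-base exon in 100% and 82.2%. The only transcript without the 126-base exon, Vldlr-206 of 774 bases, had 0 and 27 expected counts. By expected counts the 126-base exon was included in 100% and 97.1%. By expected counts the sugar exon was instead in more than it was missing from, at 55.5% and 55.9%. Here too 4369 of the 7971 bases of Vldlr-207 are its own and lie in its last exon.

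Dab1 (ENSMUSG00000028519.12, chr4:103619359-104744844, plus strand), the adaptor that carries the reelin signal inside the neuron, was at 65.45 and 63.32 TPM on 3409 and 3359 expected counts. The intervals of 60.5 to 68.2 and 58.5 to 66.1 TPM overlapped, and its coefficient of variation over the pools, 2.34%, was the lowest of the 10 genes. Dab1 exceeded the sum of Vldlr and Lrp8 1.47-fold in replicate 1 and 1.25-fold in replicate 2. That excess was absent on the longest transcript basis, where Dab1 was at 32.7 and 30.9 TPM and its ratio to the receptor sum was 1.02 in replicate 1 and 0.913 in replicate 2. The direction of this ratio therefore depends on the division of reads among transcripts.

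Of the 8 annotated Dab1 transcripts, Dab1-203, which encodes the full adaptor of 555 residues, led with 21.24 and 19.98 TPM. This was 32.45% and 31.56% of the gene's TPM but 65.0% and 64.7% of its expected counts. Dab1-207, of the nonsense-mediated decay class, held 22.84% and 20.64% of TPM. The shorter Dab1-206 held 19.91% and 18.22%, Dab1-208 held 12.27% and 11.77% and Dab1-201 held 6.41% and 8.57%. The 6 Dab1 transcripts shorter than 1500 bases took 44.7% and 47.8% of TPM on 14.1% and 16.1% of expected counts.

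The Dab1 exons printed above carry the tyrosines that the reelin signal uses. Read in frame in Dab1-203, counting residues from 1 at its start codon, tyrosine codons lie at residue 185 in the exon before them, at residue 198 in the 39-base exon, at residues 200 and 220 in the 66-base exon, and at residue 232 in the exon after them. Residues 185, 198, 220 and 232 are the sites known to be phosphorylated in the reelin response, the first pair recruiting and activating Src-family kinases and the second pair binding Crk adaptors. The codons of the sites at 198 and 220 are the TAC in the GTGTACCAG and ATTTACCAG that end the capitals of each exon. Skipping either exon keeps the reading frame and removes the site.

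Both exons were found in part of the Dab1 RNA. Transcripts with the 39-base exon summed to 24.4 TPM and those without it to 23.0 TPM in replicate 1, and to 25.2 and 20.5 TPM in replicate 2, so inclusion was 51.5% and 55.1%. For the 66-base exon the sums were 36.2 against 8.03 TPM and 33.0 against 7.45 TPM, an inclusion of 81.8% and 81.6%. By expected counts the inclusion was 74.1% and 75.8% for the 39-base exon and 97.1% in each pool for the 66-base exon. On both scales the 66-base exon was the higher in both pools. The 3047 bases that only Dab1-203 holds all lie in its last exon, so these percentages, like those of the receptors, rest in large part on reads outside the exons. The form that skips both is represented only by Dab1-208, an incomplete transcript of 641 bases with 88 and 85 expected counts and intervals of 4.59 to 11.3 and 4.06 to 11.0 TPM. Dab1-208 also holds a 51-base exon, found in 18.2% and 18.4% by TPM but 2.92% and 2.93% by expected counts. A 270-base exon, particular to Dab1-207, was in 33.8% and 32.3% by TPM and 23.6% and 22.3% by expected counts. Its length is a multiple of 3, but the annotated coding sequence of Dab1-207 has only 258 residues. Most RNA without the 39-base exon was also assigned to Dab1-207, at 14.95 and 13.07 TPM. The bases particular to Dab1-207 number 270, the length of this exon. Skipping of the 39-base exon and inclusion of the 270-base exon therefore cannot be told apart in the deposited tables.

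**Figure D2:**
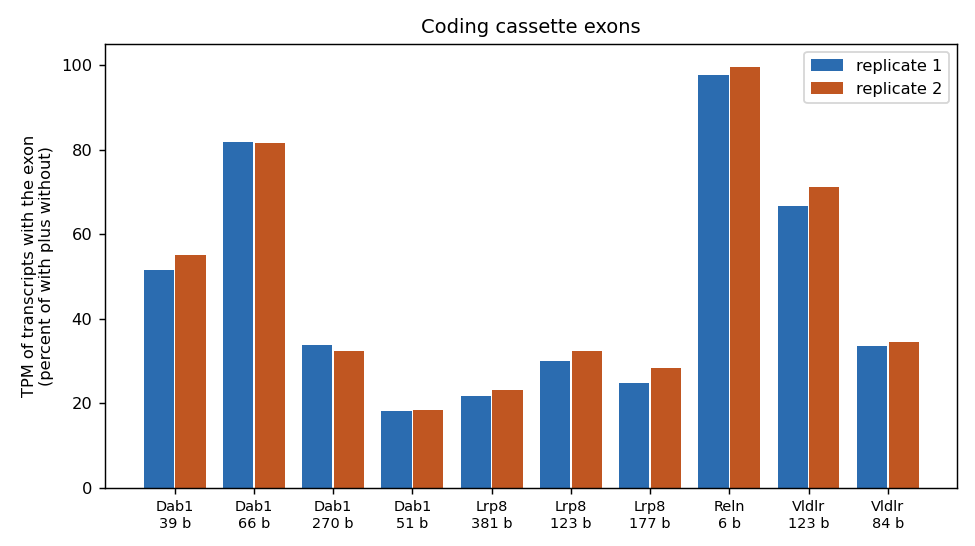
Inclusion of coding cassette exons of Dab1, Lrp8, Reln and Vldlr whose length is a multiple of 3 and whose skipping transcripts were above 0 TPM in both pools. Labels give gene and length in bases (b). Bars give the summed TPM of transcripts with the exon as a percent of those with plus those without it, in replicate 1 (blue) and replicate 2 (orange): the Reln microexon was at 97.6% and 99.5%, and the 3 Lrp8 exons shown lay between 21.7% and 32.4%.

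**Figure D3:**
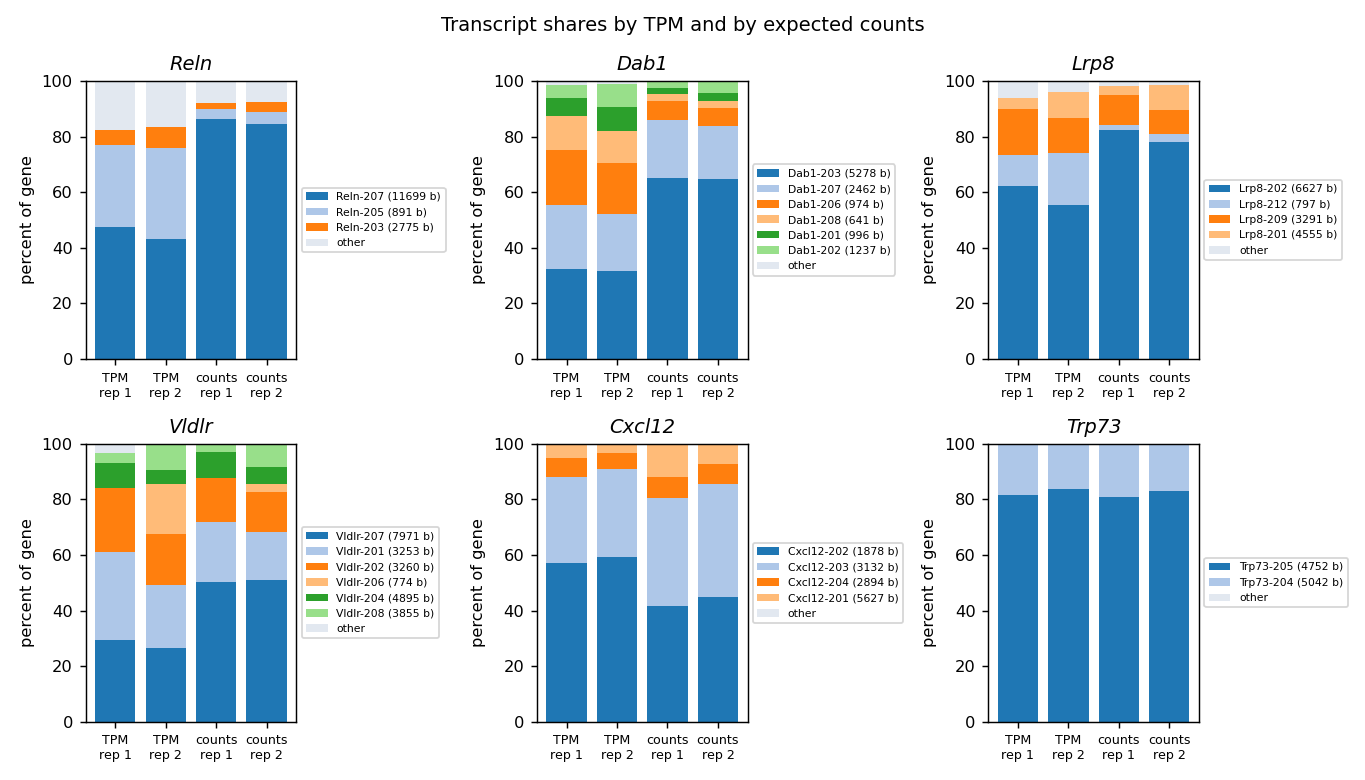
Share of each annotated transcript in its gene, as percent of TPM (left pair of bars) and of expected counts (right pair), for Reln, Dab1, Lrp8, Vldlr, Cxcl12 and Trp73 in both pools, with transcript lengths in bases (b). Transcripts at 5% or more on either scale are coloured: the longest forms Reln-207, Dab1-203, Lrp8-202 and Vldlr-207 take larger shares of counts than of TPM, and Trp73 looks alike on both.

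The markers of reelin-producing cells differed widely in level. Calb2 (ENSMUSG00000003657.8, chr8:110137502-110168210, minus strand), which encodes the calcium-binding protein calretinin, was at 34.78 TPM in replicate 1 and at 25.64 in replicate 2, on 933 and 716 expected counts. The intervals of 31.7 to 36.0 and 23.1 to 26.8 TPM did not overlap. Calb2 has 1 annotated transcript, so its level did not depend on a division among forms. Calb2 exceeded Reln 1.61-fold and 1.34-fold, and on the longest transcript basis 2.93-fold and 2.64-fold.

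Trp73 (ENSMUSG00000029026.12, chr4:154056253-154140208, minus strand), a p53-family transcription factor that Cajal-Retzius cells of the hem need, was at 7.27 and 7.52 TPM on 689 and 741 expected counts. The intervals of 7.01 to 8.93 and 7.16 to 8.72 TPM overlapped. Reln exceeded Trp73 2.97-fold and 2.54-fold, and 1.72-fold and 1.36-fold on the longest transcript basis. An antisense gene, Trp73os, overlaps 280 exonic bases of Trp73 and was at 0.3 and 0.4 TPM.

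Most Trp73 RNA was assigned to the form from the internal start, which lacks the transactivation domain and is known as ΔN. That form, Trp73-205, was at 5.93 and 6.31 TPM with intervals of 4.86 to 6.72 and 5.22 to 6.96 TPM. The form from the upstream start with the transactivation domain, Trp73-204, was at 1.34 and 1.21 TPM with intervals of 0.395 to 1.97 and 0.426 to 1.86 TPM. The intervals of both forms were separate in each pool, and the internal-start form held 81.55% and 83.87% of the gene's TPM. From posterior mean TPM its share was 72.81% and 77.02%. Trp73-205 has 0 bases that no other annotated transcript holds. The sequences show what sets both forms apart, with capitals for the coding bases that the other form lacks and lower case for the first bases of the shared exon: Trp73-205 has 39 own coding bases (chr4:154096894-154096932), and Trp73-204 has 77 bases (chr4:154104819-154104895) followed by 106 bases (chr4:154104320-154104425).
Trp73-205: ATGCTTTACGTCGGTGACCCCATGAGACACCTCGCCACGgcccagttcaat
Trp73-204, upstream exon: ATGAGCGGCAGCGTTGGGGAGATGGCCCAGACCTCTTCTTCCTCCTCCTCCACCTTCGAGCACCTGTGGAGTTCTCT
Trp73-204, downstream exon: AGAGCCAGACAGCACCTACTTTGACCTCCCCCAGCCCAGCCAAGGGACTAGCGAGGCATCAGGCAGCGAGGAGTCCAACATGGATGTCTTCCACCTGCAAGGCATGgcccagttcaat

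Ebf3 (ENSMUSG00000010476.9, chr7:137193673-137314445, minus strand), a transcription factor of Cajal-Retzius cells, was at 1.95 TPM in replicate 1 and at 2.74 in replicate 2, on 189 and 279 expected counts. The intervals of 1.66 to 2.21 and 2.40 to 3.04 TPM did not overlap. Reln exceeded it 11.1-fold and 6.97-fold, and 6.23-fold and 3.60-fold on the longest transcript basis. Its reads were divided between Ebf3-201, at 1.60 and 1.54 TPM, and Ebf3-202, at 0.35 and 1.21 TPM. The intervals of the latter, 0.0532 to 0.92 and 0.368 to 1.99 TPM, overlapped. Both forms differ in length between the deposited tables and M21, so their exons are not compared.

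Other Cajal-Retzius markers were present. Of 11 such genes outside the 10 described here, 11 reached 1 TPM in both pools, where 60.0% of protein-coding genes did. The 11 were led by the transcription factors Nhlh2 at 37.1 ± 1.54 TPM and Tbr1 at 36.0 ± 1.71 TPM. Most of these genes are also expressed by other forebrain neurons. Their summed level was 202 TPM in replicate 1 and 198 in replicate 2.

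Cxcl12 was the second most abundant of the 10 genes. Cxcl12 (ENSMUSG00000061353.7, chr6:117168535-117181367, plus strand) was at 46.31 TPM in replicate 1 and at 52.3 in replicate 2, on 2270 and 2584 expected counts. The intervals of 43.1 to 47.1 and 48.8 to 53.0 TPM did not overlap. Its longest transcript, Cxcl12-201, is 5627 bases, and on the longest transcript basis the gene was at 20.4 and 22.3 TPM. Cxcl12-201 held only 12.1% and 7.43% of the gene's expected counts. For Cxcl12 this basis thus divides most reads by a length above that of their assigned transcript.

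The transcript of the canonical short chemokine led among those of Cxcl12. Cxcl12-202, which encodes the alpha form of 89 residues, was at 26.49 and 31.0 TPM, or 57.22% and 59.27% of the gene. Cxcl12-203, the beta form of 93 residues, was at 14.3 and 16.56 TPM, or 30.89% and 31.67%. Both pools of the alpha form lay above both pools of the beta form, and by expected counts the shares were closer, at 41.8% and 44.8% against 38.5% and 40.8%. Only 39 of the 1878 bases of Cxcl12-202, and 0 of Cxcl12-203, are in no other annotated transcript. These counts are taken against every other transcript of the gene. They do not show how many bases set the alpha form apart from the beta form. Cxcl12-201, the gamma form of 119 residues with a basic tail, was at 2.46 and 1.65 TPM and is named after its values were seen.

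The 3 forms share their coding sequence up to the same base and differ only in its end. The lines below show the last shared coding bases in lower case and the form's own coding bases with the stop codon in capitals. Without the stop codon, the own coding bases lie at chr6:117173579-117173579 for the alpha form, chr6:117178583-117178595 for the beta form and chr6:117176086-117176176 for the gamma form.
Cxcl12-202, alpha: gaaagctttaaacaaGTAA
Cxcl12-203, beta: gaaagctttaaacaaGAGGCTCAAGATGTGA
Cxcl12-201, gamma: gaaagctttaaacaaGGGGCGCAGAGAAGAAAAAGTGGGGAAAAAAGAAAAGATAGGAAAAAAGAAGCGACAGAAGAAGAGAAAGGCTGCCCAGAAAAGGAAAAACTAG

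Of the chemokine receptors, the atypical one was the more abundant. Ackr3 (ENSMUSG00000044337.5, chr1:90203980-90216751, plus strand) was at 23.55 and 21.05 TPM on 1373 and 1310 expected counts, with intervals of 21.7 to 24.4 and 19.5 to 21.8 TPM that overlapped. Cxcr4 (ENSMUSG00000045382.6, chr1:128588199-128592293, minus strand) was at 7.85 and 8.30 TPM on 270 and 274 expected counts, with overlapping intervals of 6.90 to 8.80 and 7.10 to 9.29 TPM. Ackr3 exceeded Cxcr4 3.00-fold in replicate 1 and 2.54-fold in replicate 2. Ackr3 was assigned almost wholly to 1 coding transcript, Ackr3-201, with 97.24% and 100% of TPM. Cxcr4-201 held 100% and 85.29% of the TPM of Cxcr4. The rest in replicate 2, 14.71%, went to Cxcr4-202, also coding, on 21 expected counts. The excess of Ackr3 over Cxcr4 on the longest transcript basis was close to that by TPM, at 2.92-fold and 2.75-fold.

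The ligand exceeded the signalling receptor more clearly than the atypical one. Cxcl12 exceeded Cxcr4 5.90-fold and 6.30-fold by TPM, and 2.59-fold and 2.91-fold on the longest transcript basis. By TPM it exceeded Ackr3 1.97-fold and 2.48-fold. On the longest transcript basis the ratio of Cxcl12 to Ackr3 was 0.887 in replicate 1 but 1.06 in replicate 2. For Cxcl12 this basis uses the 5627 bases of Cxcl12-201, which held 12.1% and 7.43% of its expected counts. The order of Cxcl12 and Ackr3 therefore depends on the scale.

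Between the pools most of the genes differed little. The ratio of TPM + 1 was used, with 1.2-fold as the threshold for a difference worth naming. Adding 1 TPM understates the difference of low genes. Calb2 was 1.34-fold higher in replicate 1, the only 1 of 10 in that direction, where 6.07% of the 15315 genes at a mean of 1 TPM or more lay. Ebf3 was 1.27-fold higher in replicate 2, again 1 of 10, where 11.9% of those genes lay. The deposited intervals were separate for 3 of 10 genes, Calb2, Ebf3 and Cxcl12, and for 14.0% of all those genes. With 10 genes, none of these counts is read as a result about the group. The other 8 genes ranged from a log2 ratio of -0.17 for Reln to 0.23 for Vldlr, and the median over all 15315 genes was 0.01. With expected counts scaled by TMM or by DESeq2 size factors, which ignore transcript length, Reln also passed 1.2-fold.

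**Figure D4:**
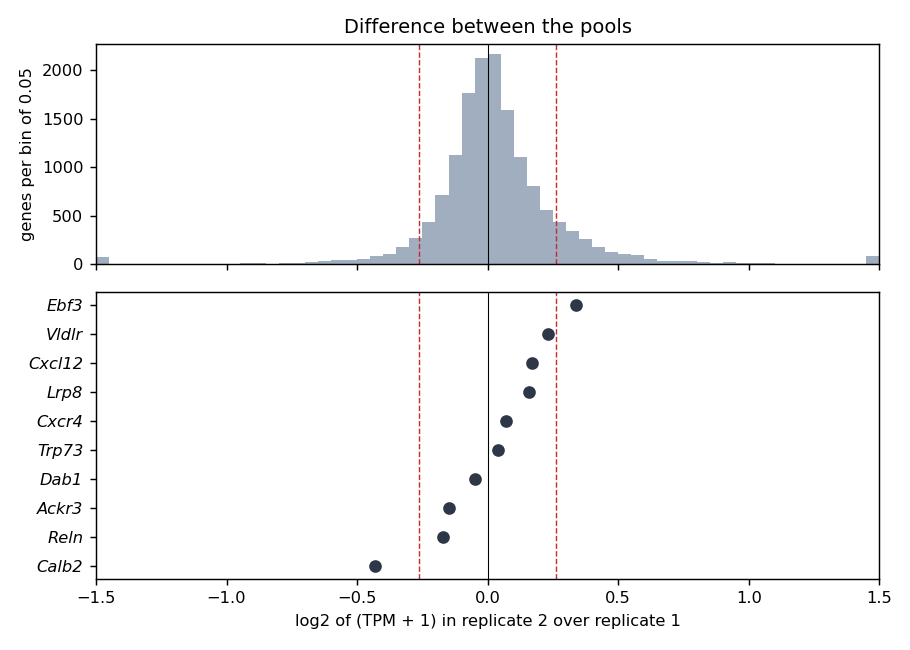
Upper panel: number of genes, of 15315 at a mean of 1 TPM or more, per bin of the log2 ratio of TPM + 1 in replicate 2 over replicate 1, with genes beyond the axis in the outermost bins. Lower panel: the same ratio for each of the 10 genes, where Calb2 at -0.43 and Ebf3 at 0.34 lie outside the dashed lines at 1.2-fold.

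Markers of several tissue parts moved with the pools. Interneuron and ventral markers summed to 624 TPM in replicate 1 and to 455 in replicate 2, and 4 of 8 were past 1.2-fold, where 6.07% of all genes lay: Dlx1 at 245.88 and 170.5 TPM, Dlx2 at 109.3 and 70.84 TPM, Dlx5 and Lhx6. This was the direction of Calb2, which some ventral and thalamic neurons also express. In the other direction, the direction of Ebf3 and Cxcl12, meningeal and mesenchymal markers summed to 710 and 867 TPM (7 of 9 past 1.2-fold), cortical hem markers to 72.1 and 92.2 TPM (5 of 7) and red blood cell markers to 8465 and 11292 TPM (6 of 6), where 11.9% of all genes lay. Among the meningeal genes Col3a1 was at 307.35 and 338.5 TPM and Col1a1 at 170.64 and 220.23 TPM. Those past 1.2-fold were Col1a1, Col1a2, Foxc1, Foxd1, Dcn, Lum and Twist1. Among the hem genes Wnt8b was at 17.59 and 24.71 TPM and Rspo1 at 16.69 and 21.64 TPM. The others past 1.2-fold were Wnt3a, Wnt5a and Wnt2b, the last at 0.64 and 1.28 TPM and so below the mean of 1 TPM that the all-gene share requires. The red blood cell genes were Hbb-y, Hbb-bt, Hba-a1, Hba-x, Alas2 and Slc4a1. Dorsal markers summed to 401 and 431 TPM, with 2 of 6, Emx1 and Eomes, past 1.2-fold and higher in replicate 2. Endothelial markers (108 and 111 TPM), mural markers (51.5 and 56.6 TPM), thalamic markers (388 and 424 TPM) and the other Cajal-Retzius markers had 0 genes past 1.2-fold. The part of any of these cell types in the differences of Calb2, Ebf3 and Cxcl12 was not tested.

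**Figure D5:**
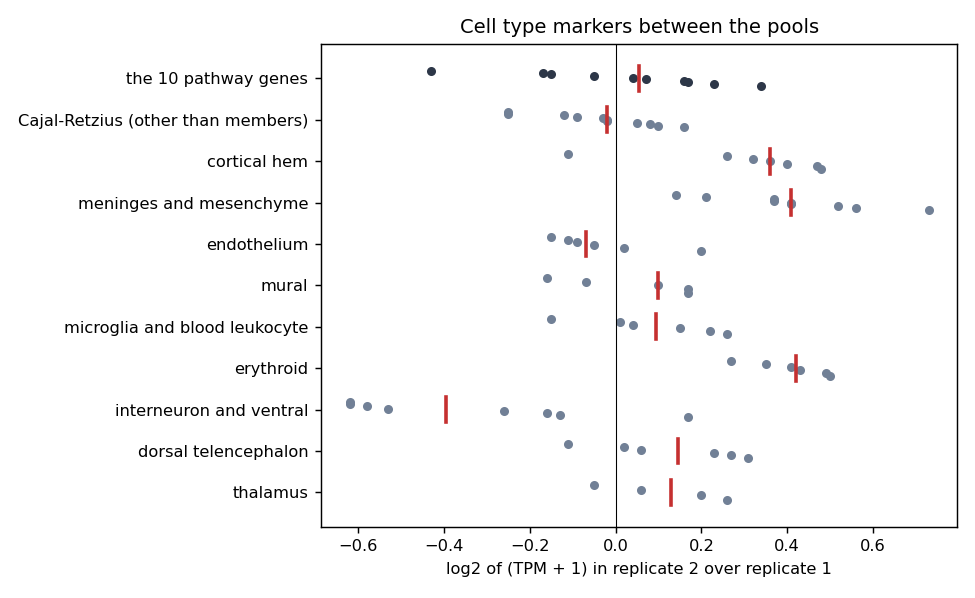
Log2 ratio of TPM + 1 in replicate 2 over replicate 1 for the 10 genes (top row) and for each gene of the marker lists (grey points), with the median of each row in red. Hem, meningeal and red blood cell markers lie mostly to the right, with medians of 0.36, 0.41 and 0.42, and ventral markers mostly to the left, with a median of -0.40.

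The intracellular partners of the reelin route were nearly all expressed. Of 12 genes of the adaptor and kinase arm, 12 reached 1 TPM in both pools, from the phosphoinositide kinase subunit Pik3r1 at 17.5 ± 1.22 TPM to the small GTPase Rap1b at 134 ± 4.43 TPM. Fyn, a Src-family kinase that phosphorylates Dab1, was at 51.12 and 52.39 TPM, and Crk, the adaptor that binds phosphorylated Dab1, was at 119.83 and 114.5 TPM. The only gene of this arm past 1.2-fold between pools was Akt1, at 38.56 and 59.05 TPM, higher in replicate 2.

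Genes of the Lis1 complex, which couples migration to dynein and microtubules, had the highest median among the lists of this route at 130 TPM, with 6 of 6 at 1 TPM or more. They ran from Ndel1 at 49.4 ± 1.80 TPM to Pafah1b3 at 315 ± 4.16 TPM, and the microtubule protein Dcx was at 138.6 and 113.64 TPM, past 1.2-fold. All 3 genes of Dab1 turnover were detected, from Socs7, the substrate receptor that marks active Dab1 for degradation, at 6.55 ± 0.0849 TPM to Rnf7 at 193 ± 4.04 TPM. Of the Cdk5 route, which acts in parallel on migration, all 3 were detected, from Cdk5r2 at 1.65 ± 0.0354 TPM to Cdk5r1 at 48.4 ± 5.56 TPM.

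Proteases that cleave reelin were low by comparison. All 5 reached 1 TPM, with a median of 3.52 TPM, from Adamts2 at 1.58 ± 0.127 TPM to Bmp1, the tolloid protease, at 19.9 ± 1.88 TPM. Furin was at 2.68 and 3.53 TPM, past 1.2-fold. Of 9 parallel receptors and ligands, 9 were detected, from the endocytic receptor Lrp2 at 1.31 ± 0.198 TPM to the integrin subunit Itgb1 at 111 ± 7.18 TPM. In this list Efnb2 and Itga3 were past 1.2-fold in the direction of replicate 1 and Thbs1 in that of replicate 2.

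For the chemokine route, 12 of 12 coupling genes reached 1 TPM in both pools and 0 of 12 were past 1.2-fold. They ran from the receptor kinase Grk5 at 1.71 ± 0.156 TPM to the small GTPase Cdc42 at 483 ± 1.75 TPM. The G protein subunit Gnai2 was at 481.82 and 469.88 TPM, and the arrestin Arrb2, a partner of both receptors, was at 33.32 and 30.54 TPM. Of the other genes tied to these receptors, Mif, which also binds Cxcr4, was at 1332.26 and 1416.02 TPM and Cxcl14 at 15.83 and 21.59 TPM. Cxcl11, the other chemokine that Ackr3 binds, was at 0.0 and 0.03 TPM. Cd74 was at 0.31 and 0.27 TPM, and Dpp4, a protease that inactivates Cxcl12, was at 0.45 and 0.86 TPM. In all, 52 of 55 genes of the pathway lists reached 1 TPM in both pools, where 60.0% of protein-coding genes did. Of the 55, 3 were past 1.2-fold towards replicate 1 and 5 towards replicate 2, of which Dpp4 lay below 1 TPM. Of all genes at a mean of 1 TPM or more, 6.07% and 11.9% lay past it in these directions. The fold counts are not read as a result about the lists.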

How the data were processed

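Total RNA from 2 pools was extracted with mirVana and 10 ng entered each library, with ERCC spike-ins and a size range above 200, per the labels. The deposited gene and transcript tables use mm10 and GENCODE M4, per the labels' and file headers' text. No quantifier is named in the sources used here. The authors' tables hold expected counts, TPM relative to all features with spike-ins, posterior mean TPM and interval bounds around it, treated as a score in the deposited files. The deposited transcript tables give percent of gene TPM. The effective length was length minus 99 bases.

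The 10 genes and all gene lists were chosen with earlier results of these data known. Genes were named by rule: all 10, in each pathway list the highest, the lowest and those past the fold between pools, and in marker lists those past the fold and, where printed, the highest 2, while other genes or transcripts named were chosen after their values were seen. Symbols, positions and exons came from M21, where 57 of 60 transcripts of the 10 genes had the same length. Exon inclusion is the summed TPM of transcripts with an exon over those that span it, or the same with expected counts. Detection was set at 1 TPM and a difference between pools at 1.2-fold of TPM + 1. Expected counts were scaled with edgeR 4.0.16 (TMM) and DESeq2 1.42.0 only as alternatives, with no test. The scaling was tested on simulated data. Intervals cover counting and read assignment error only. The later deposit named in the series title was not used here.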

Additional observations from a re-analysis of the deposited data

How the results depend on the processing

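On the longest transcript basis, added after seeing the data, 14 of 22 values moved and 2 reversed. The median of the 10 genes was then 16.1 TPM. The log2 ratio of Dab1 to the receptor sum turned to -0.05 and that of Cxcl12 to Ackr3 to -0.05. Of the other ratios, Vldlr to Lrp8 was -2.32, Reln to Lrp8 -1.35, Cxcl12 to Cxcr4 1.46, Calb2 to Reln 1.47, Trp73 to Reln -0.61 and Ebf3 to Reln -2.24, each in its direction by TPM. By expected counts, also added then, 26 of 35 transcript shares and exon inclusions moved: the share of Dab1-203 was 64.8% and that of Lrp8-202 was 80.2%. Both settings differ from TPM by construction. The longest transcript basis divides all reads of a gene by its longest length, also where that form holds few reads, as in Cxcl12. Expected counts use no length, so short transcripts weigh less. With posterior mean TPM the log2 ratio of Vldlr to Lrp8 was -1.82. Of 25 transcript shares, 4 moved with it, among them that of Trp73-205, to 74.9%. With TPM rescaled to mouse genes the median was 23.4 TPM. At 1.5-fold 0 of 10 genes differed between pools, beside 2 at 1.2-fold, since the threshold is stricter. With TMM or DESeq2 size factors the number past 1.2-fold was 3. Leaving out 1 of 2 pools gives the other pool's value, so it is no check of stability. No paired analysis was possible because there is 1 group. With 2 pools the spread is poorly known, and the counts of Ebf3 and Cxcr4 were the lowest of the 10 genes.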
